A study of Mus musculus with 12 samples.

Results

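Expression was compared between epiblast-like cells (EpiLCs) carrying a mutant form of the protein EPOP and EpiLCs carrying wild-type (WT) EPOP. The comparison took every library labelled as an EpiLC, 3 with mutant and 3 with WT EPOP, which is 6 of the 12 libraries of the study. Of 19630 named genes with raw read counts, 13879 passed a filter on low counts and were tested. The study sequenced total RNA from the E14 line of mouse embryonic stem cells (mESCs) and from EpiLCs made from it, and its title asks how EPOP limits where a form of Polycomb repressive complex 2 (PRC2) binds chromatin.

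EPOP is an accessory protein of PRC2.1. PRC2 methylates lysine 27 of histone H3 at genes that are kept silent, among them Hox genes and many regulators of development, and EPOP also binds elongin, a factor of transcription elongation. EpiLCs model the formative epiblast that follows implantation: during their differentiation the transcription factors of the naive state (Esrrb, Klf4, Tbx3 and others) are shut off, while Fgf5, Pou3f1, Dnmt3b and other formative genes are switched on.

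All cells, mutant and WT, re-express EPOP, and cells without it or with only the endogenous protein were not analysed here. The mESCs had been kept in 2i/LIF medium (a MEK inhibitor, a GSK3 inhibitor and LIF) on gelatin. Both EpiLC groups were then plated on fibronectin in N2B27 medium with activin A, bFGF and KSR. The sources used here give neither the nature of the mutation nor whether a group is 1 clone or a pool. In the count table the columns that are not WT are headed D5, a code without explanation, and were read as mutant since no other genotype is listed in the study; every direction below rests on this reading. Whether replicates came from separate cultures is not given, so the spread behind each p-value is that of these libraries and may be technical.

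Depth was 8218527 to 10652151 counts per EpiLC library. The first principal component of the 6, with 41.1% of the variance, separated WT from mutant libraries. Epop itself, listed as E130012A19Rik, stood at 209.8, 205 and 212 CPM in WT and 207, 216 and 197 CPM in mutant libraries. The groups overlapped and the gene was not called (-0.02 ± 0.04, log2 fold change ± SE; edgeR adjusted p = 0.867), so its level cannot tell mutant libraries from WT. As markers of the state, 6 EpiLC genes (Fgf5, Otx2, Pou3f1, Dnmt3b, Lef1 and Sox3) summed to 702.1 to 703.1 CPM (counts scaled to 1e6 counts of effective library size) in WT and to 947.9 to 950.0 CPM in mutant EpiLCs, against 108.1 to 120.9 CPM in the mESC libraries of both genotypes. In contrast, 6 naive genes summed to 355.9 to 376.5 CPM in WT and 160.9 to 172.7 CPM in mutant EpiLCs, against 3661 to 3838 CPM in mESCs. Both EpiLC groups thus carried the markers of their label, with no overlap between them in either sum.

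The edgeR quasi-likelihood test called 2198 of the 13879 genes (15.8%) at an adjusted p under 0.05, and the text writes "rose" or "fell" only of these. Of them, 974 (7.02% of tested genes) were higher and 1224 (8.82%) lower in mutant EpiLCs. Most differences were small, with a median log2 fold change of 0.28 among genes that rose and of -0.38 among genes that fell. Large differences were mainly falls: 45 genes (0.324%) were at least 2-fold higher and 202 (1.46%) at least 2-fold lower. Groups did not overlap for 4230 genes (30.5%). For genes named among the 12 largest rises or 12 largest falls this was a condition, so it adds nothing there. The share called rose with expression, from 4.14% of genes under 1 CPM to 27.8% of those over 100 CPM, and under 3 CPM most calls were falls. Leaving out each of the 6 libraries in turn kept the call of 1034 of the 2198 genes every time, and a named gene did so unless another p is given beside it. In bulk RNA, fewer cells of a type and less RNA per cell cannot be told apart.

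**Figure D1:**
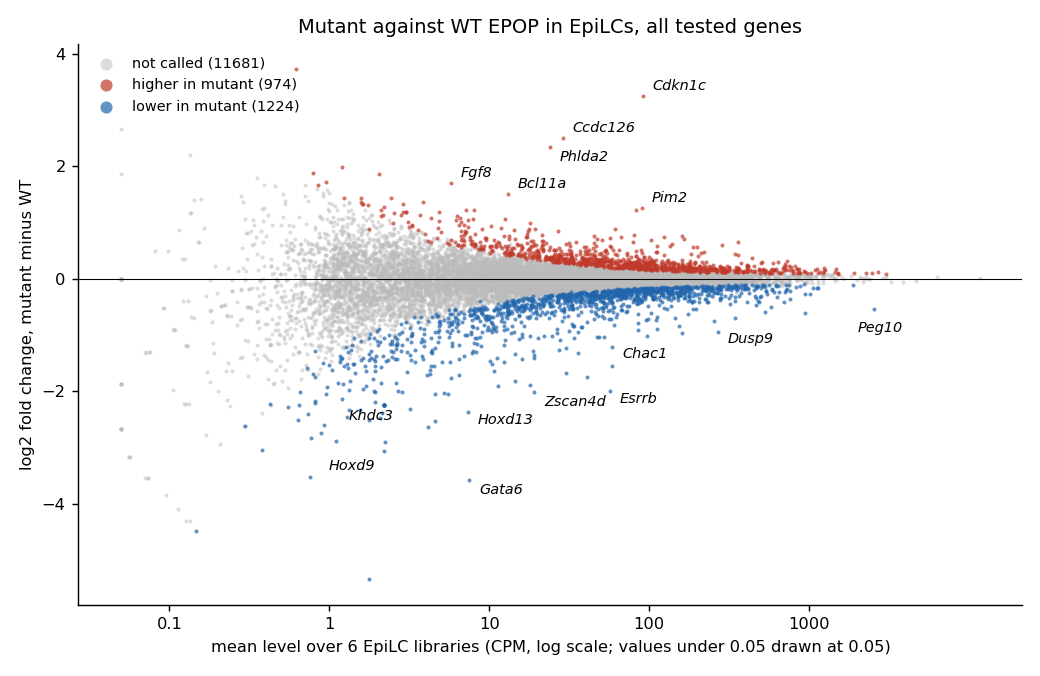
Log2 fold change of mutant against WT EpiLCs (vertical axis) against the mean CPM over the 6 libraries (horizontal axis, log scale) for the tested genes, with the 974 genes called higher in red and the 1224 called lower in blue. Points far from 0 lie mostly below it. H19, with no count in mutant libraries, is not drawn.

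Genes were grouped into 44 lists by function, described here by counts and medians beside those of all tested genes (median log2 fold change -0.00). Lists and members were chosen with earlier results of these data known, so the ranking of lists is a description and no test. The lists in which the largest shares of tested members fell were naive pluripotency (23 of 31), 2-cell-like genes (13 of 20) and the integrated stress response (20 of 38). Those in which the largest shares rose were the clustered protocadherins (22 of 36, neighbours that share exons), ribosomal proteins (42 of 81) and formative and primed genes (16 of 33).

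**Figure D2:**
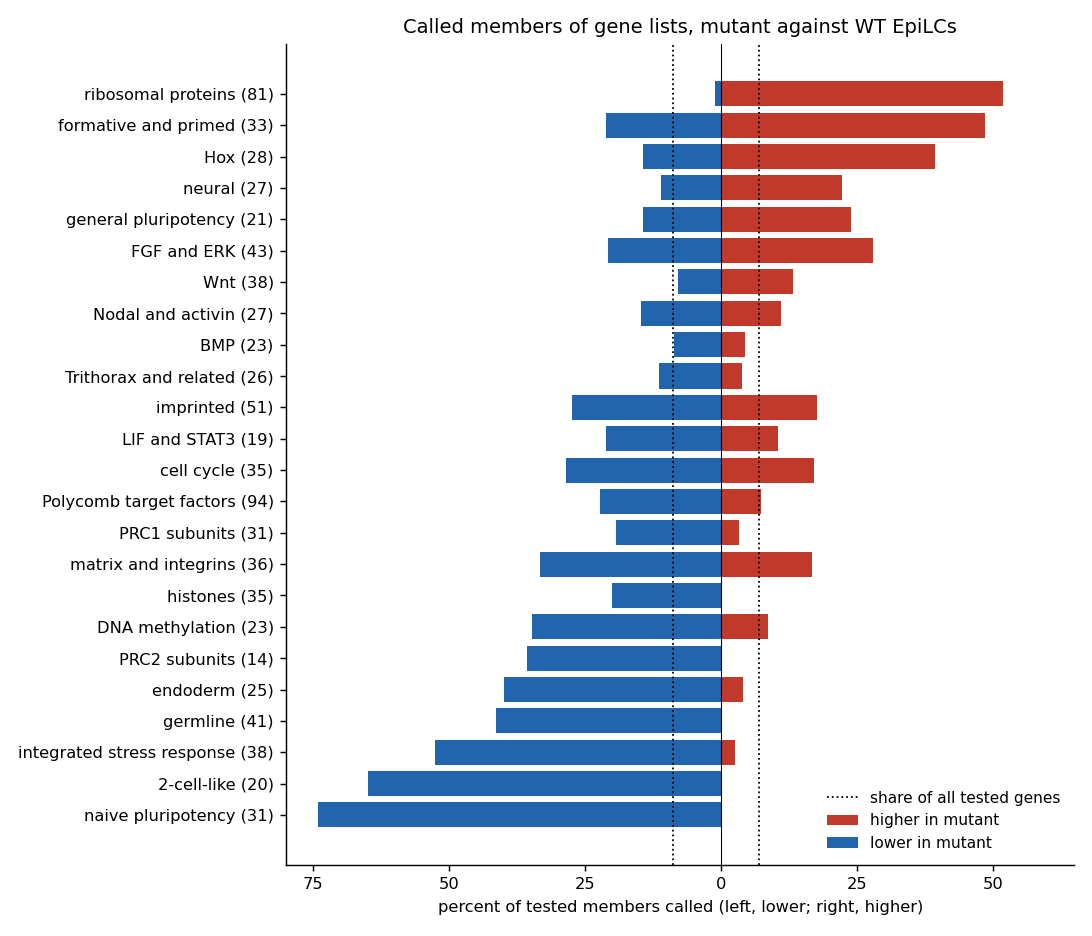
Percent of tested members of 24 gene lists called higher (red, right) or lower (blue, left) in mutant EpiLCs, with the number of tested members in brackets. Dotted lines mark the shares of all tested genes, 7.02% higher and 8.82% lower. Of the lists shown, naive pluripotency has the longest bar to the left and ribosomal proteins the longest bar to the right.

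Naive pluripotency genes stood lower in mutant EpiLCs: of 31 tested, 23 fell and none rose, with a median log2 fold change of -0.78. Esrrb, an orphan nuclear receptor of the naive network, stood at 89.96, 93.9 and 88.1 CPM in WT and 25.4, 22.03 and 19.8 CPM in mutant libraries. That is a 4.04-fold lower mean and a log2 fold change of -2.005 ± 0.06 (SE; adjusted p = 1.55e-56), and the WT libraries lay within 6 CPM of each other. In WT mESCs Esrrb stood at 942 ± 43.98 CPM (SD, n = 3), so it was already low in WT EpiLCs. Tbx3, a T-box factor of the same network, stood at 19.7, 13.7 and 15.2 CPM in WT and 4.88, 4.99 and 5.62 CPM in mutant libraries, a log2 fold change of -1.65 ± 0.13. Fbxo15, an F-box gene long used as a reporter of mouse ES cells, stood at 49.2, 56.2 and 48.03 CPM in WT and 21.6, 18.02 and 21.9 CPM in mutant libraries, and its log2 fold change was -1.32 ± 0.08. For none of these 3 genes did the groups overlap.

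Other members of the naive circuit moved the same way. Nr0b1, a corepressor that interacts with Nanog and Oct4, stood at 41.6, 44.5 and 41.5 CPM in WT and 20.2, 15.3 and 18.4 CPM in mutant libraries (-1.23 ± 0.09; adjusted p = 4.67e-24). Tfcp2l1 stood at 37.2, 40.7 and 34.3 CPM in WT and 18.2, 16.6 and 17.9 CPM in mutant libraries (-1.09 ± 0.08), and Zfp42, also known as Rex1, at 135, 127 and 126 CPM in WT and 67.98, 66.3 and 57.6 CPM in mutant libraries (-1.01 ± 0.05). All 6 libraries were separated by genotype for each of them. The Krüppel-like factors fell by different amounts: Klf4 had a log2 fold change of -0.78 ± 0.12 and Klf2 of -0.59 ± 0.07, while Klf5, chosen after its values were seen, had -1.04 ± 0.07. Khdc3, a gene of the maternal subcortical complex, was the member over 2 CPM with the largest fall, from 5.24, 5.11 and 5.52 CPM in WT to 0.844, 1.22 and 1.15 CPM in mutant libraries. Nanog, chosen after its values were seen, fell less, from 227, 231 and 243 to 172, 178 and 178 CPM (-0.41 ± 0.04). Of the 8 members that were not called, Dppa4 and Tdh, also chosen after their values were seen, had log2 fold changes of -0.10 ± 0.06 and 0.06 ± 0.11.

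**Figure D3:**
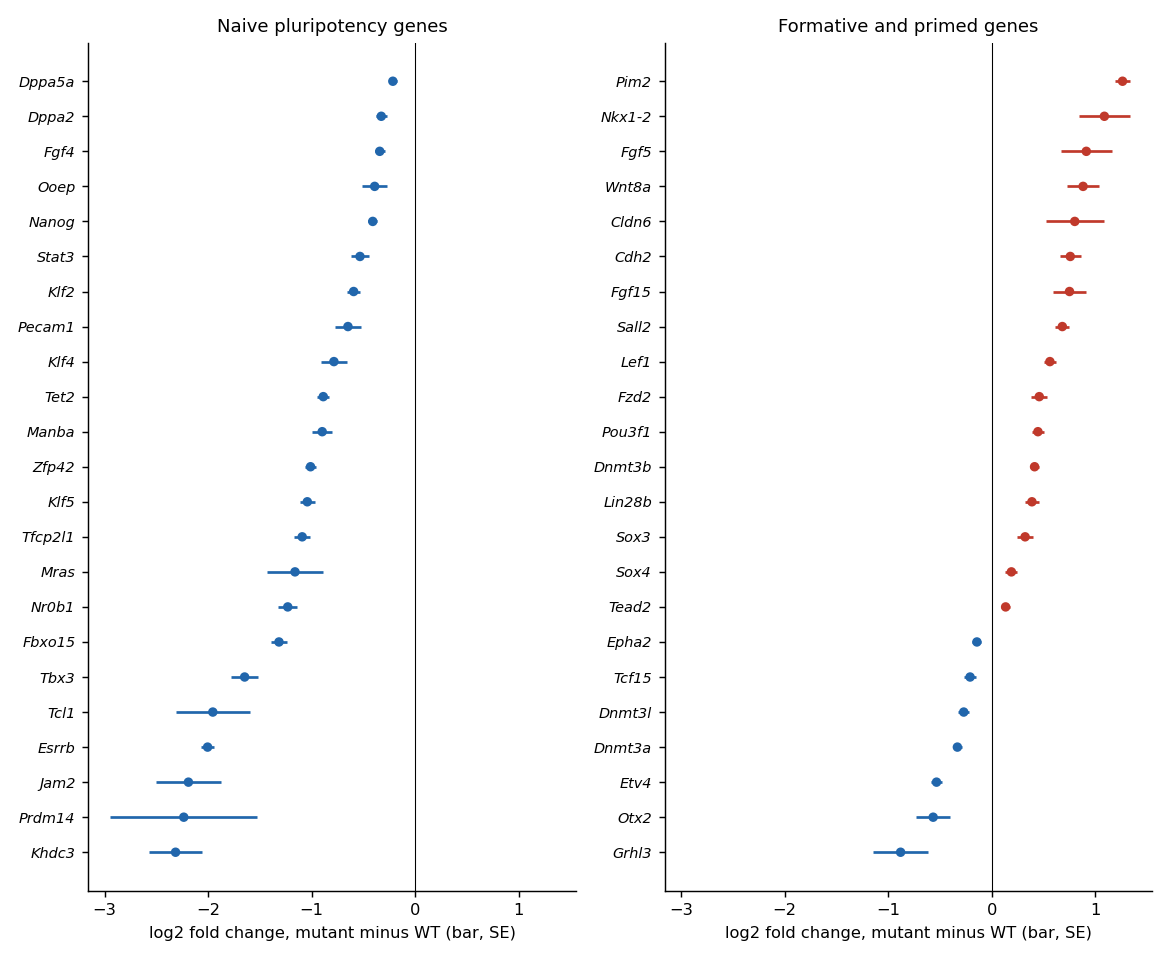
Log2 fold changes of mutant against WT EpiLCs with SE for the 23 called naive genes (left) and the 23 called formative and primed genes (right; 16 higher, 7 lower). Red marks genes called higher and blue those called lower. The naive genes run from Khdc3 at -2.31 to Dppa5a at -0.22, all below 0, while the formative genes lie on both sides of 0.

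Genes of the formative and primed epiblast moved in both directions, mainly up: of 33 tested, 16 rose and 7 fell (4 without mutant replicate 3), with a median of 0.27. The share called was 69.7%, against 15.8% of all tested genes. Pim2, a serine/threonine kinase, stood at 53.8, 50.99 and 54.4 CPM in WT and 128, 124 and 130.3 CPM in mutant libraries, a 2.400-fold rise (1.26 ± 0.07; adjusted p = 3.73e-31). Wnt8a, a Wnt ligand, stood at 12.8, 12.6 and 15.6 CPM in WT and 25.7, 26.1 and 23.7 CPM in mutant libraries (0.88 ± 0.15). For both genes every mutant library was above every WT library, which was a condition for Pim2 as 1 of the 12 largest rises. Nkx1-2, a homeobox gene of the caudal epiblast, stood at 1.45, 3.37 and 3.41 CPM in WT and 5.06, 6.21 and 6.42 CPM in mutant libraries (1.09 ± 0.25).

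The classical EpiLC markers also rose in the mutant, with the exception of Otx2. Fgf5, the ligand most used as a marker of this state, stood at 5.13, 4.598 and 5.64 CPM in WT and 11.2, 7.42 and 10.1 CPM in mutant libraries (0.91 ± 0.25; adjusted p = 0.00388, and 0.07 without mutant replicate 1). Pou3f1, also known as Oct6, rose from 155 ± 5.91 to 211 ± 5.69 CPM (SD, n = 3) and Lef1, a nuclear effector of Wnt signalling, from 152 ± 6.37 to 224 ± 9.97 CPM. Dnmt3b, a de novo DNA methyltransferase, rose from 307 ± 3.99 to 409 ± 10.2 CPM and Sox3 from 66.6 ± 3.02 to 83.5 ± 5.92 CPM. Otx2, a homeobox factor that drives entry into the formative state, went the other way, at 16.9, 17.98 and 18.8 CPM in WT and 12.7, 10.3 and 13.2 CPM in mutant libraries (-0.56 ± 0.16; adjusted p = 0.00854, and 0.077 without mutant replicate 2). Among members chosen after their values were seen, Cdh2 (N-cadherin) rose by 0.76 and Sall2 by 0.68 on the log2 scale, while Etv4 and Dnmt3a had log2 fold changes of -0.53 ± 0.05 and -0.33 ± 0.04.

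Among factors that both pluripotent states share, Pou5f1 (Oct4) stood at 822, 842 and 881 CPM in WT and 870.4, 858 and 875 CPM in mutant libraries, with overlapping groups and a log2 fold change of 0.03 ± 0.03 (adjusted p = 0.591). Sall4 was likewise not called, at -0.01 ± 0.05. Sox2 stood at 110.0, 97.8 and 113 CPM in WT and 90.5, 94.3 and 98.7 CPM in mutant libraries, and its groups overlapped although it was called (-0.18 ± 0.05; adjusted p = 0.0104, and up to 0.1 without 1 library). Over the whole list of general pluripotency genes, 5 of 21 rose and 3 fell, so that 38.1% were called, against 15.8% of all tested genes, with a median of 0.01. The RNA-binding proteins Lin28a and Lin28b, inhibitors of let-7 microRNA maturation, both rose: Lin28a stood at 396, 399 and 359.7 CPM in WT and 496, 508 and 485 CPM in mutant libraries (0.37 ± 0.04) and Lin28b at 75.9, 85.4 and 80.9 CPM in WT and 106, 108 and 103 CPM in mutant libraries (0.39 ± 0.07).

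Genes of the signalling pathways that steer this transition showed mixed changes. LIF signalling, which sustains the naive state through STAT3, had 4 of 19 members lower and 2 higher (median -0.15). That is 31.6% called, against 15.8% of all tested genes. The receptor gene Lifr stood at 41.1, 42.1 and 39.2 CPM in WT and 29.2, 32.3 and 33.3 CPM in mutant libraries (-0.38 ± 0.08; adjusted p = 0.000242), and Stat3 at 32.8, 44.5 and 39.3 CPM in WT and 26.4, 29.5 and 25.2 CPM in mutant libraries (-0.53 ± 0.08), although the exons of Stat3 overlap those of Stat5a. Pim1, a STAT3 target, fell from 249 ± 2.79 to 195 ± 3.177 CPM, the opposite direction to its paralog Pim2.

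The FGF and ERK list had 21 of 43 members called (48.8%, against 15.8% of all tested genes), 12 higher and 9 lower, with a median of 0.06. Ligands differed in direction: Fgf8, a ligand of the primitive streak and of posterior mesoderm, stood at 2.56, 2.25 and 3.29 CPM in WT and 10.2, 7.91 and 8.14 CPM in mutant libraries (3.24-fold higher; 1.71 ± 0.29; adjusted p = 9.86e-07), whereas Fgf4, chosen after its values were seen, fell from 185 ± 9.699 to 146 ± 4.52 CPM. Feedback regulators also split. Dusp9, a phosphatase that inactivates ERK, stood at 369, 355 and 333 CPM in WT and 186, 188 and 177 CPM in mutant libraries (1.92-fold lower; -0.94 ± 0.05; adjusted p = 4.26e-38), with no mutant library near the WT range. Phlda1 fell by 0.88 on the log2 scale. Among members chosen after their values were seen, the immediate-early genes Egr1 and Fos had log2 fold changes of 0.56 ± 0.07 and 0.76 ± 0.15, while Jun had -0.77 ± 0.16 and Etv5 -0.31 ± 0.04. The Fos groups overlapped, with values of 7.25, 12.1 and 10.4 CPM in WT and 18.3, 11.4 and 20.6 CPM in mutant libraries.

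Nodal and activin genes had 3 of 27 members higher and 4 lower, so 25.9% were called, against 15.8% of all tested genes. The paired Nodal inhibitors of the Lefty family, which lie side by side in the genome, moved in opposite directions. Lefty1 stood at 632, 641 and 659.7 CPM in WT and 796, 797 and 823 CPM in mutant libraries (0.32 ± 0.04; adjusted p = 3.15e-09). Lefty2 stood at 548, 563 and 529 CPM in WT and 407, 429.5 and 414 CPM in mutant libraries (-0.39 ± 0.04; adjusted p = 1.53e-15). In neither case did the groups overlap. Wnt genes (5 of 38 higher, 3 lower) and BMP genes (1 of 23 higher, 2 lower, with 1 lower when any library but WT replicate 2 was left out) were also near the background. Of the latter, Id2, an inhibitor of bHLH factors, rose from 7.02, 8.69 and 8.46 to 15.4, 18.8 and 16.9 CPM (1.07 ± 0.18), while Bmp4 was at 3.902, 1.74 and 2.35 CPM in WT and 1.41, 1.34 and 1.49 CPM in mutant libraries (-0.90 ± 0.31; adjusted p = 0.0281, and 0.4 without WT replicate 1). Of 19 Notch genes 3 rose and 1 fell (2 without mutant replicate 1), so 21.1% were called, against 15.8% of all tested genes. The fall was that of Rbpj, the DNA-binding effector of the pathway, from 368 ± 13.6 to 269.9 ± 1.78 CPM. Of 16 Hedgehog genes 3 rose and none fell (1 without mutant replicate 1), so 18.8% were called. Gli1, a target of the pathway whose exons overlap those of Arhgap9, rose from 3.35 ± 0.3502 to 6.24 ± 1.18 CPM.

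Imprinted genes, whose parental origin decides which allele is expressed, held the largest single changes in both directions, with 9 of 51 higher and 14 lower (median -0.15). The share called was 45.1%, against 15.8% of all tested genes. Cdkn1c, an inhibitor of cyclin-dependent kinases that restrains fetal growth, stood at 16.9, 17.3 and 17.97 CPM in WT and 169.5, 168 and 159.6 CPM in mutant libraries. That was a 9.53-fold rise, the largest of any gene over 2 CPM whose groups did not overlap (3.25 ± 0.08; adjusted p = 6.99e-68). Phlda2, a growth-restraining gene of the placenta, stood at 7.02, 7.66 and 9.04 CPM in WT and 38.4, 44.8 and 37.6 CPM in mutant libraries (5.09-fold; 2.35 ± 0.13; adjusted p = 1.17e-32). In GRCm38 the genes lie close together on chromosome 7, Cdkn1c from 143458339 to 143461050 and Phlda2 from 143501545 to 143503150, both on the minus strand and in an imprinted domain that the noncoding RNA Kcnq1ot1 silences on the paternal allele.

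Other genes of that domain, chosen after their values were seen, gave the following. Slc22a18, which lies between Cdkn1c and Phlda2, was at 0.112, 0.102 and 0 CPM in WT and 0.656, 1.34 and 1.49 CPM in mutant libraries (adjusted p = 0.000336). Kcnq1ot1, at 143203458 to 143296549 on the same chromosome, stood at 15.4, 15.8 and 17.6 CPM in WT and 11.2, 5.23 and 9.17 CPM in mutant libraries (-0.91 ± 0.20; adjusted p = 0.000687), with the caution that its exons overlap Kcnq1. Toward the edges of the domain Cd81 rose by 0.24 on the log2 scale, and Tssc4, Osbpl5 and Nap1l4 were not called, at 0.20 ± 0.12, 0.53 ± 0.39 and 0.02 ± 0.05.

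In the neighbouring imprinted domain of chromosome 7, H19, a maternally expressed noncoding RNA that overlaps Mir675, stood at 8.14, 7.77 and 6.93 CPM in WT libraries and had no count in any mutant library. Against a floor of 3 counts over the 3 mutant libraries it was at least 70.2-fold lower (adjusted p = 1.23e-18). Igf2, its reciprocally imprinted neighbour and chosen after its values were seen, was not called, at 5.797, 7.25 and 6.81 CPM in WT and 5.91, 6.45 and 4.82 CPM in mutant libraries (-0.21 ± 0.25; adjusted p = 0.65).

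Elsewhere among imprinted genes, Plagl1, a zinc finger factor, stood at 17.3, 17.6 and 16.6 CPM in WT and 6.75, 8.76 and 7.34 CPM in mutant libraries (-1.18 ± 0.13). Peg10, a retrotransposon-derived gene needed in the placenta, was 1 of the 5 most abundant genes that fell, from 2996 ± 87.6 to 2054 ± 54.7 CPM (-0.54 ± 0.04; adjusted p = 2.86e-25). Among those chosen after their values were seen, Grb10, an adaptor that restrains growth signalling, rose from 125 ± 1.395 to 203 ± 5.57 CPM and Impact fell from 318 ± 13.8 to 189.9 ± 8.09 CPM. Peg13 was at 3.79, 3.58 and 3.05 CPM in WT and 0.188, 0 and 0 CPM in mutant libraries.

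**Figure D4:**
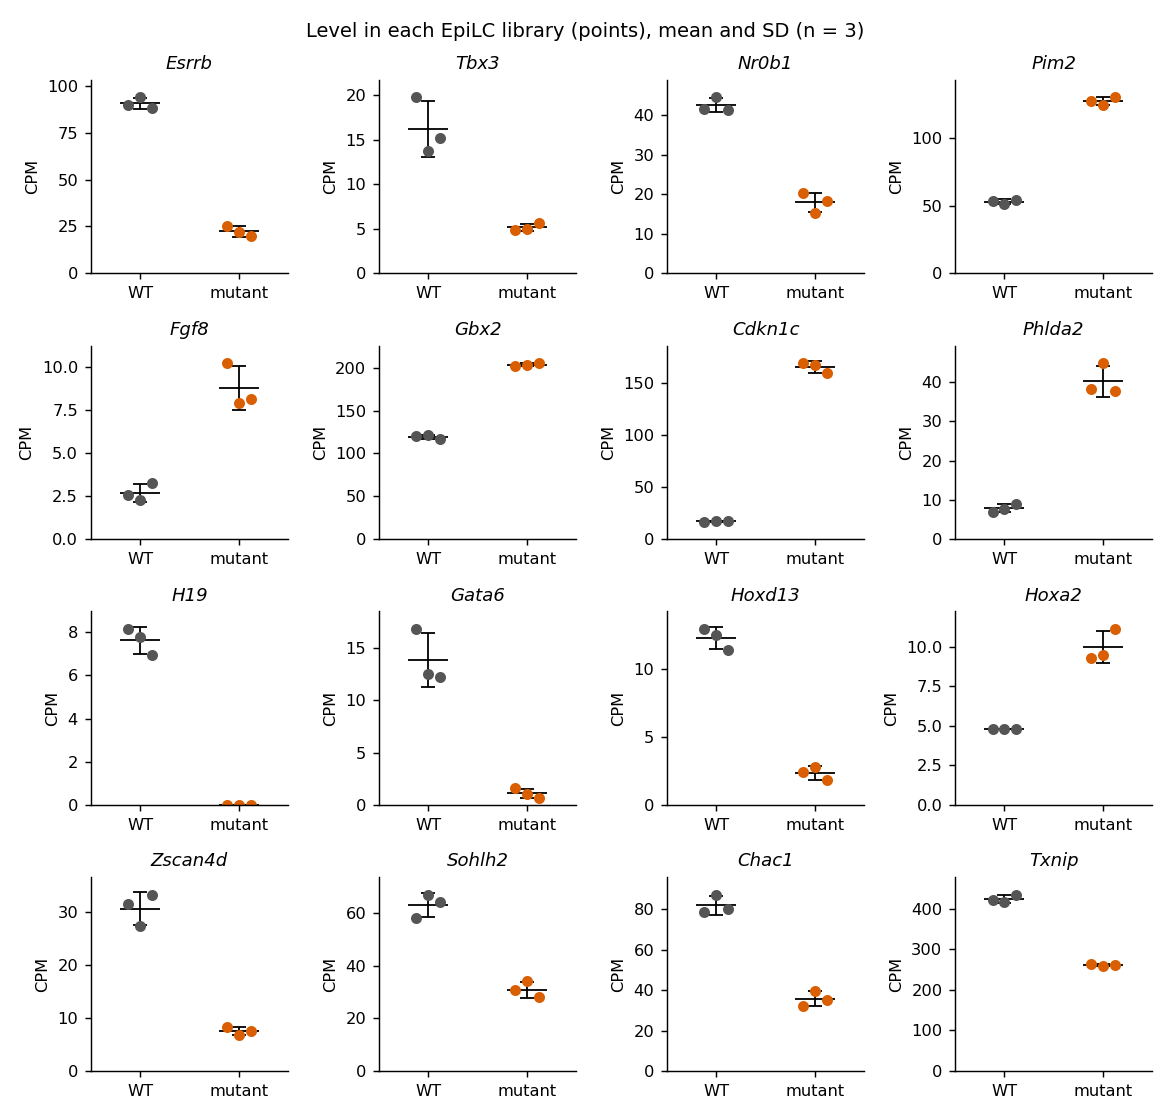
CPM of 16 genes in each EpiLC library (points), with the mean and SD of the 3 WT (grey) and the 3 mutant (orange) libraries; each vertical axis starts at 0. In every panel the groups are separate. H19 lies at 0 in the mutant libraries and Cdkn1c rises from under 20 to over 150 CPM.

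Hox genes, the classical targets of Polycomb repression that pattern the body axis, split by cluster. Of 28 tested, 11 rose (7 without WT replicate 3) and 4 fell, and the median of 0.25 differed in sign from the mean of -0.16. The share called was 53.6%, against 15.8% of all tested genes. The 4 that fell belong to the Hoxd cluster, and of these Hoxd1, chosen after its values were seen, had an adjusted p of up to 0.14 when WT replicate 1 or mutant replicate 1 was left out. Hoxd13, at the posterior end of the cluster, stood at 12.9, 12.5 and 11.4 CPM in WT and 2.44, 2.800 and 1.83 CPM in mutant libraries (5.202-fold lower; -2.37 ± 0.24; adjusted p = 2.02e-15). Hoxd9 stood at 4.01, 4.19 and 3.76 CPM in WT and 0.938, 0.365 and 0 CPM in mutant libraries (-3.06 ± 0.44) and Hoxd8 at 2.23, 3.98 and 4.34 CPM in WT and 0.375, 0.243 and 1.26 CPM in mutant libraries (-2.48 ± 0.43). No mutant library reached the lowest WT library for any of the 3. Each was named among the 12 largest falls, for which separate groups were a condition.

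In the Hoxa cluster, Hoxa2 to Hoxa5, which are neighbours on chromosome 6, all rose, with log2 fold changes from 0.31 to 1.05. Hoxa2 stood at 4.79, 4.802 and 4.82 CPM in WT and 9.28, 9.49 and 11.1 CPM in mutant libraries (1.05 ± 0.25; adjusted p = 0.000967). Hoxa3 stood at 47.04, 50.6 and 41.7 CPM in WT and 54.7, 60.9 and 64.3 CPM in mutant libraries, with exons that overlap 2700086A05Rik. Hoxa4 and Hoxa5 had log2 fold changes of 0.51 ± 0.15 and 0.31 ± 0.10, with an adjusted p of up to 0.054 and 0.1 when 1 library was left out. Further along the cluster, Hoxa9 and Hoxa10, chosen after their values were seen, had 0.55 ± 0.18 (adjusted p of up to 0.16 without 1 library) and 0.32 ± 0.09 (up to 0.1). In the Hoxb cluster the largest called rises, likewise chosen, were 0.96 ± 0.26 for Hoxb8 (0.052 without WT replicate 2) and 0.61 ± 0.15 for Hoxb1.

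Beyond Hox genes, developmental transcription factors known as Polycomb targets in ES cells were lower more often than higher: of 94 tested (of 178 in the table, the rest being too low), 21 fell and 7 rose, with a median of -0.43. Most stood at a few CPM, where falls outnumbered rises among all tested genes as well. At 1 to 3 CPM 96 of 1696 genes fell and 20 rose, and at 3 to 10 CPM 154 of 2233 fell and 69 rose. The part of expression level in the split of this list was not tested. Nkx2-4 stood at 4.24, 5.21 and 3.52 CPM in WT and 1.22, 0.852 and 1.15 CPM in mutant libraries (-1.99 ± 0.42) and Tbx1 at 2.67, 2.86 and 4.34 CPM in WT and 1.03, 0.609 and 1.03 CPM in mutant libraries (-1.85 ± 0.46). Tfap2c, a factor of germ cell and trophoblast development, stood at 7.803, 11.4 and 10.4 CPM in WT and 3.19, 3.53 and 2.29 CPM in mutant libraries (-1.72 ± 0.19; adjusted p = 8.34e-14). The 7 that rose were Gbx2, Meis2, Nkx1-2, Olig3, Pou3f1, Sox1 and Wt1, of which Meis2, Olig3 and Wt1 are named after their values were seen. Gbx2, a homeobox gene of the epiblast and hindbrain, stood at 119.9, 121 and 117 CPM in WT and 202, 203 and 205 CPM in mutant libraries (0.77 ± 0.05; adjusted p = 3.38e-25), and Sox1, the earliest marker of neuroectoderm, at 171, 172 and 179 CPM in WT and 243, 211 and 237 CPM in mutant libraries (0.41 ± 0.05). Bcl11a, a zinc finger repressor that is no member of this list, stood at 7.13, 6.95 and 6.11 CPM in WT and 19.03, 20.4 and 18.5 CPM in mutant libraries and was 2.87-fold higher (adjusted p = 3.79e-11).

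Endoderm genes fell in part: of 25 tested, 10 fell, 1 rose and 14 were not called, with a median of -0.58. The share called was 44.0%, against 15.8% of all tested genes. Gata6, a factor that specifies primitive endoderm, stood at 16.8, 12.6 and 12.2 CPM in WT and 1.59, 1.096 and 0.688 CPM in mutant libraries (12.3-fold lower; -3.57 ± 0.30; adjusted p = 9.36e-20), although its exons overlap 1010001N08Rik. Pdgfra, a receptor of the same lineage, stood at 4.68, 4.700 and 4.34 CPM in WT and 1.03, 1.34 and 1.03 CPM in mutant libraries (-2.01 ± 0.41), and Gata4 at 11.5, 9.81 and 11.9 CPM in WT and 6.56, 3.895 and 5.16 CPM in mutant libraries (-1.06 ± 0.20). Cubn, an endocytic receptor of visceral endoderm, stood at 5.57, 7.25 and 6.11 CPM in WT and 2.62, 1.22 and 3.67 CPM in mutant libraries (-1.32 ± 0.33), and Sox17 at 1.56, 2.76 and 2.35 CPM in WT and 0.656, 0.122 and 0.344 CPM in mutant libraries. In sum, 6 endoderm markers made up 44.2 to 46.3 CPM in WT and 17.7 to 20.8 CPM in mutant libraries, so these transcripts were a small part of the RNA in both. The member that rose was Lrp2 (megalin), chosen after its values were seen, from 277 ± 15.2 to 436 ± 29.9 CPM.

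Markers of other lineages were summed in the same way. The 5 mesoderm and streak markers summed to 16.6 to 18.3 CPM in WT and 15.94 to 19.04 CPM in mutant libraries, with T at 1.34, 0.817 and 0.352 CPM in WT and 0.938, 0.852 and 1.26 CPM in mutant libraries and not called. The 4 neural markers summed to 239.0 to 240.9 CPM in WT and 288.3 to 313.6 CPM in mutant libraries, of which Sox1 made up most. Trophoblast markers stood at 6.23 to 10.3 and 6.08 to 7.06 CPM, with Elf5 at 0 in all 6 libraries. In the wider trophoblast list, which also holds Tfap2c and Peg10, 5 of 14 fell and none rose (35.7% against 8.82% of all genes), with a median of -0.39. Fibroblast and feeder markers stood at 3.47 to 5.24 and 6.31 to 7.91 CPM, with Col3a1 at 0 in all 6 libraries. Of these, Dcn was called at 0.7803, 0.409 and 0.235 CPM in WT and 1.97, 2.44 and 1.38 CPM in mutant libraries (1.98 ± 0.59; adjusted p = 0.0093, and up to 0.067 without 1 library). The part of the endoderm, neural and fibroblast markers in the other results was not tested.

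Genes of the 2-cell-like state, a rare totipotent-like condition of ES cell cultures, were lower in the mutant: 13 of 20 tested fell and none rose, with a median of -1.54. Zscan4d stood at 31.4, 27.3 and 33.2 CPM in WT and 8.35, 6.695 and 7.57 CPM in mutant libraries (4.07-fold lower; -2.01 ± 0.15; adjusted p = 1.98e-23), and Zscan4b at 8.92, 7.56 and 10.4 CPM in WT and 2.81, 1.95 and 1.605 CPM in mutant libraries (-2.05 ± 0.27). The 6 tested Zscan4 genes, neighbours on chromosome 7, fell by between 1.52 and 2.05 on the log2 scale. Gm8300 stood at 10.03, 6.74 and 6.69 CPM in WT and 1.41, 0.7304 and 1.83 CPM in mutant libraries and Gm5662 at 7.92, 7.77 and 9.28 CPM in WT and 0.7501, 2.19 and 3.33 CPM in mutant libraries. Members of these families are near-identical copies, so how reads were split among them is uncertain, and their number of calls is not a number of independent observations.

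Germline genes, many of which are held silent by PRC1.6 and DNA methylation in this state, fell in part: 17 of 41 tested were lower and none higher (1 higher without WT replicate 2 or mutant replicate 3), with a median of -0.24. The share lower was 41.5%, against 8.82% of all tested genes. Sohlh2, a bHLH factor of spermatogonia and oocytes, stood at 58.1, 66.9 and 64.1 CPM in WT and 30.7, 34.1 and 27.98 CPM in mutant libraries (2.04-fold lower; -1.03 ± 0.09; adjusted p = 3.6e-20). Tex19.1, which restrains retrotransposons in germ cells, stood at 41.6, 36.99 and 45.1 CPM in WT and 23.2, 19.11 and 22.4 CPM in mutant libraries (-0.92 ± 0.09), and the X-linked Taf7l at 10.8, 11.7 and 10.7 CPM in WT and 5.44, 4.87 and 4.59 CPM in mutant libraries (-1.15 ± 0.22). Smc1b, a meiotic cohesin, stood at 11.8, 9.196 and 9.63 CPM in WT and 4.501, 7.18 and 5.28 CPM in mutant libraries (-0.87 ± 0.22). Of the 24 members that were not called, Ddx4 and Mael, chosen after their values were seen, had log2 fold changes of -0.09 ± 0.12 and -0.14 ± 0.16. Among genes of the X-linked clusters active in the early embryo, 4 of 10 fell (40.0%, against 8.82% of all tested genes). Xlr3a stood at 6.800, 7.56 and 7.16 CPM in WT and 1.97, 0.852 and 0.459 CPM in mutant libraries (-2.63 ± 0.33), with near-identical copies, and Rhox5 fell from 70.5 ± 1.97 to 49.8 ± 4.33 CPM.

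In the integrated stress response, phosphorylated eIF2 favours translation of ATF4, and ATF4 switches on amino acid synthesis and transport genes. Only RNA was measured here. Of 38 tested members of the list, 20 fell, 1 rose and 17 were not called, with a median of -0.19. Chac1, which degrades glutathione, stood at 78.6, 87.2 and 80.1 CPM in WT and 32.4, 39.7 and 35.1 CPM in mutant libraries (2.29-fold lower; -1.21 ± 0.08; adjusted p = 2.65e-26). Trib3, a pseudokinase that feeds back on ATF4, stood at 54.96, 57.3 and 55.8 CPM in WT and 34.5, 35.2 and 32.8 CPM in mutant libraries (-0.71 ± 0.08), and Atf3 at 10.1, 8.17 and 12.3 CPM in WT and 5.81, 4.75 and 4.702 CPM in mutant libraries (-0.99 ± 0.19). Vldlr, a lipoprotein receptor, stood at 14.8, 13.6 and 16.1 CPM in WT and 8.81, 8.399 and 9.17 CPM in mutant libraries (-0.75 ± 0.16). The groups were separate for all 4. Among members chosen after their values were seen, Atf4 itself stood at 466, 477 and 508 CPM in WT and 422, 419.8 and 416 CPM in mutant libraries (-0.21 ± 0.04; adjusted p = 1.64e-05), and Asns, asparagine synthetase, at 552, 569 and 548 CPM in WT and 418, 426 and 416 CPM in mutant libraries (-0.41 ± 0.04), while Atf5 was the member that rose (0.28 ± 0.06). The share called was 55.3% in this list, against 15.8% of all tested genes. A related list had a smaller share, 27.3%. Of its 22 genes, those of the unfolded protein and heat shock responses, 4 fell (2 without WT replicate 2) and 2 rose. Among them Herpud1 stood at 88.3, 85.9 and 84.6 CPM in WT and 57.8, 58.1 and 56.4 CPM in mutant libraries (-0.59 ± 0.07).

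The binding motif of ATF4 with its C/EBP partners was looked for as TGATGNAA on both strands of the promoters, 250 bases before to 50 after the start site in RefSeq GRCm38.p6. It was present in 7 of 17 members that fell and had a promoter in the table (41.2%), in 2 of 13 that were not called (15.4%), in 2.71% of 10862 tested genes with a promoter and in 4.51% of all 27025 genes of the table. The 7 were Trib3, Chac1, Asns, Slc1a4, Atf3, Vldlr and Nupr1. A match describes the letters and is no evidence of binding. The stretches around 6 of these matches are shown because their genes gave the values above or share the motif, with the motif in capitals, read 5′ to 3′ along the gene; a motif on the other strand reads as its reverse complement.
Chac1 (chr2:119351029-119351076, plus strand): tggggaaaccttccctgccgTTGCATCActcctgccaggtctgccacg
Asns (chr6:7693205-7693252, minus strand): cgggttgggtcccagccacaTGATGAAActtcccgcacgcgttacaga
Slc1a4 (chr11:20332690-20332737, minus strand): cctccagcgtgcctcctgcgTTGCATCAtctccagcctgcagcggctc
Atf3 (chr1:191183416-191183463, minus strand): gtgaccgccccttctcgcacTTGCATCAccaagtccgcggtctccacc
Vldlr (chr19:27216800-27216847, plus strand): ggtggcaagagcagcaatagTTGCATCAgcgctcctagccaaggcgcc
Nupr1 (chr7:126625553-126625600, minus strand): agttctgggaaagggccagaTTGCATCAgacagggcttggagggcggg

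In 5 of the 6 stretches the motif reads TTGCATCA, and in Asns it reads TGATGAAA. The 6 matches begin between 4 and 200 bases before the start site, while the match of Trib3, not shown, begins 14 bases after it. Nupr1, a stress-induced chromatin protein, stood at 10.7, 11.1 and 10.8 CPM in WT and 6.75, 7.79 and 7.91 CPM in mutant libraries (-0.55 ± 0.15), and Slc1a4, a neutral amino acid transporter, had a log2 fold change of -0.22 ± 0.07 (adjusted p of up to 0.13 without 1 library), both chosen after their values were seen. The E-box CACGTG was in 5 of 14 germline genes that fell (35.7%) and in 10 of 22 that were not called (45.5%), against 11.8% of tested genes, and TCCCGC, an E2F-like motif, was in 57.1% and 59.1%, against 40.3%. The ESRRB-type motif TCAAGGTCA was in the promoter of none of 15 naive genes that fell. It was in only 0.313% of tested genes, so its absence from so few promoters tells nothing about them.

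Among Polycomb genes, 5 of 14 PRC2 subunits and partners fell (35.7%, against 8.82% of all tested genes) and none rose, with a median of -0.12. Suz12, a core subunit, stood at 267, 286 and 264 CPM in WT and 217, 220.4 and 225 CPM in mutant libraries (-0.31 ± 0.04; adjusted p = 1.29e-08). Mtf2, the accessory subunit that recruits PRC2.1 to CpG-rich DNA, stood at 279.8, 269.8 and 283 CPM in WT and 232, 227 and 238 CPM in mutant libraries (-0.26 ± 0.04), although its exons overlap Tmed5. Jarid2, an accessory subunit of the alternative PRC2.2 form, stood at 433, 429 and 403 CPM in WT and 369, 370.4 and 369.8 CPM in mutant libraries (-0.19 ± 0.04). No group overlapped for these 3 genes. Among the methyltransferases, Ezh1 had a log2 fold change of -0.37 ± 0.11 (adjusted p of up to 0.069 without 1 library), and Ezh2, chosen after its values were seen, of 0.00 ± 0.04 (adjusted p = 0.996). By the authors' deposited TPM, which are scaled by transcript length, Ezh1 averaged 13.1 and Ezh2 226 in WT libraries, so Ezh1 was the lower of the pair on this scale.

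PRC1 genes had 6 of 31 members lower and 1 higher (none without mutant replicate 2), with a median of -0.05. That is 22.6% called, against 15.8% of all tested genes. Of EPOP's binding partners outside PRC2, Cul2, a ubiquitin ligase scaffold, fell from 156 ± 8.91 to 125 ± 2.85 CPM (-0.32 ± 0.05), and Usp7, a deubiquitinase, had -0.13 ± 0.04 (adjusted p of up to 0.065 without 1 library). Tceb2, elongin B, whose exons overlap Srrm2, had 0.15 ± 0.05 (up to 0.18). DNA methylation genes had 8 of 23 lower and 2 higher (1 without mutant replicate 1), so 43.5% were called, against 15.8% of all tested genes. The Tet dioxygenases that oxidise methylcytosine fell in part: Tet2 stood at 149.7, 141 and 147 CPM in WT and 76.4, 72.7 and 87.3 CPM in mutant libraries (-0.89 ± 0.06; adjusted p = 2.56e-22) and Tet1 at 674, 638 and 591 CPM in WT and 437, 388 and 440.1 CPM in mutant libraries (-0.59 ± 0.04; adjusted p = 1.97e-23). Tet3, chosen after its values were seen, had -0.02 ± 0.08. Zfp57, which protects methylated imprinting control regions, stood at 198, 191 and 204 CPM in WT and 113, 102 and 115 CPM in mutant libraries (-0.85 ± 0.05; adjusted p = 5.12e-31).

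Ribosomal protein genes were slightly higher in mutant EpiLCs. Of 81 ribosomal protein genes 42 rose and 1 fell, with a median log2 fold change of 0.11, but the count that rose was 22 without WT replicate 1 and 27 without mutant replicate 2. Rplp2 stood at 512, 534 and 558 CPM in WT and 652, 637 and 656 CPM in mutant libraries (0.28 ± 0.04) and Rps21 at 328, 319 and 367 CPM in WT and 411, 417 and 406 CPM in mutant libraries (0.28 ± 0.05). The gene that fell is Rpl10l, a retrocopy used in male germ cells, at 50.3, 51.7 and 51.8 CPM in WT and 31.04, 28.7 and 29.8 CPM in mutant libraries (-0.78 ± 0.07; adjusted p = 1.2e-16). Oxidative phosphorylation genes had 9 of 76 members higher (11.8%, against 7.02% of all tested genes) and none lower. The number higher was 5 and 3 without WT replicates 1 and 2. The most abundant genes that rose were Pkm, Npm1, Gapdh, Rpsa and Eno1b, none by more than 0.13 on the log2 scale, and of these Npm1, a nucleolar chaperone, kept its call without each library, at 2531, 2565 and 2567 CPM in WT and 2745, 2899 and 2737 CPM in mutant libraries. The others had an adjusted p of up to 0.19 for Pkm, 0.3 for Gapdh, 0.24 for Rpsa and 0.1 for Eno1b when 1 library was left out. Abundant genes that fell included Top2a, a DNA topoisomerase, from 1200.0 ± 16.8 to 1065 ± 24.8 CPM (-0.17 ± 0.03).

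Glycolysis genes had 8 of 26 higher (5 without WT replicate 1 and 4 without mutant replicate 2) and 3 lower. With all libraries the share called was 42.3%, against 15.8% of all tested genes. Pfkp, a phosphofructokinase whose exons overlap Pitrm1, stood at 74.02, 84.8 and 71.05 CPM in WT and 43.6, 44.8 and 42.4 CPM in mutant libraries (-0.82 ± 0.06; adjusted p = 3.89e-22), while the glucose transporter Slc2a1 rose from 453 ± 14.7 to 555 ± 11.4 CPM. Pdk1, which diverts pyruvate from the mitochondria, fell from 315 ± 12.6 to 248 ± 6.24 CPM, and Slc16a3, a lactate exporter, rose from 142 ± 7.14 to 179 ± 10.6 CPM. Txnip, an inhibitor of thioredoxin and of glucose uptake whose exons overlap Gm15441, stood at 421, 417 and 434 CPM in WT and 265, 259 and 262 CPM in mutant libraries (-0.69 ± 0.04; adjusted p = 9.73e-30). Mt2, a metallothionein, fell from 312 ± 9.68 to 239.5 ± 3.71 CPM.

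Of matrix and integrin genes 12 of 36 fell and 6 rose, so that 50.0% were called, against 15.8% of all genes. Spp1 (osteopontin) stood at 31.1, 24.5 and 23.8 CPM in WT and 10.9, 10.5 and 11.3 CPM in mutant libraries (2.43-fold lower; -1.28 ± 0.10; adjusted p = 5.68e-21), and Col4a1, a basement membrane collagen, at 141, 138 and 134 CPM in WT and 89.6, 82.5 and 85.7 CPM in mutant libraries (-0.68 ± 0.06), although its exons overlap Col4a2. Fn1 (fibronectin), chosen after its values were seen, fell from 541 ± 24.2 to 391 ± 44.9 CPM. Of junction genes, Dsg2, a desmosomal cadherin, stood at 34.7, 41.1 and 40.4 CPM in WT and 16.9, 16.6 and 15.02 CPM in mutant libraries (2.397-fold lower; -1.26 ± 0.10; adjusted p = 9.51e-23) and Cldn4 at 22.7, 19.8 and 20.8 CPM in WT and 12.3, 13.9 and 9.29 CPM in mutant libraries (-0.84 ± 0.12). Guidance genes had 9 of 38 higher and 6 lower, so 39.5% were called, against 15.8% of all tested genes. Sema6a, a semaphorin, stood at 4.01, 5.21 and 5.29 CPM in WT and 13.03, 8.64 and 11.9 CPM in mutant libraries (1.22 ± 0.21). Efnb2 rose from 88.7 ± 4.93 to 133 ± 2.39 CPM, and the receptor Nrp2 fell from 10.96 ± 1.47 to 5.901 ± 0.542 CPM. Zyx, a focal adhesion protein whose exons overlap Epha1, rose from 109 ± 2.02 to 167 ± 7.53 CPM.

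Cell cycle genes had 6 of 35 higher and 10 lower, and the count that fell was 6, 4 and 5 without WT replicate 2 and mutant replicates 1 and 3. With all libraries the share called was 45.7%, against 15.8% of all tested genes. The D-type cyclins, which drive G1, did not move together. Ccnd1 stood at 164, 155 and 160.2 CPM in WT and 244, 231 and 231 CPM in mutant libraries (0.56 ± 0.05; adjusted p = 1.33e-19), although its exons overlap Oraov1, and Ccnd2 rose from 32.9 ± 2.94 to 46.4 ± 1.92 CPM (0.50 ± 0.10), while Ccnd3, chosen after its values were seen, had -0.18 ± 0.06 (adjusted p of up to 0.085 without 1 library). Histone genes had 7 of 35 lower and none higher (1 without mutant replicate 3), so 20.0% were called, against 15.8% of all tested genes. H2afx, a variant that marks DNA breaks when phosphorylated, stood at 691, 684 and 644 CPM in WT and 477, 486 and 463 CPM in mutant libraries (-0.50 ± 0.04; adjusted p = 5.35e-24).

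Several genes with large changes belong to none of these groups. Ccdc126 stood at 8.25, 7.36 and 10.1 CPM in WT and 44.6, 52.8 and 49.1 CPM in mutant libraries (5.701-fold higher; 2.51 ± 0.12; adjusted p = 7.89e-38), the second largest rise under the rule for named genes. Miat, a long noncoding RNA, stood at 1.78, 2.25 and 2.35 CPM in WT and 5.53, 4.38 and 6.65 CPM in mutant libraries (1.37 ± 0.32), and Cend1, a neuronal gene, at 1.56, 0.715 and 1.64 CPM in WT and 2.81, 3.65 and 4.13 CPM in mutant libraries (1.43 ± 0.41; adjusted p = 0.0067, and 0.095 without WT replicate 2). Atp1a4 and Lrriq1 had higher levels by 1.33 and 1.28 on the log2 scale, with an adjusted p of up to 0.067 and 0.11 when 1 library was left out. Among falls, Spesp1, a sperm surface gene, stood at 3.57, 4.496 and 2.701 CPM in WT and 1.03, 0.243 and 0.688 CPM in mutant libraries (-2.38 ± 0.45), and the X-linked Tex13 at 7.803, 7.25 and 7.16 CPM in WT and 2.06, 1.704 and 1.49 CPM in mutant libraries (-2.06 ± 0.31).

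By position, calls were spread over all chromosomes and, apart from Y, made up from 13.7% of tested genes on chromosome 2 to 21.9% on chromosome 18, where 22 of the 38 rises are the Pcdhg genes that share exons, and 20.6% on chromosome 6. On the X chromosome 14.2% of 486 genes fell and 5.56% rose. All 4 tested genes of the Y chromosome rose, Eif2s3y from 50.5, 42.6 and 56.5 to 118, 119 and 112 CPM (1.23 ± 0.07) and Ddx3y from 39.4, 44.1 and 44.5 to 81.6, 76.2 and 78.3 CPM (0.88 ± 0.08). Between the corresponding mESC groups these genes differed as well, with Eif2s3y at 63.6 ± 1.19 CPM in the WT and 152 ± 5.89 CPM in the mutant group (SD, n = 3), with no difference of effects called (adjusted p = 0.892). Their levels therefore differed between the WT and mutant groups in both states. The EpiLCs were made from the mESCs, and whether a group is 1 clone is not given. A difference between the cell lines and an effect of the mutation thus cannot be told apart.

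Runs of at least 4 neighbouring tested genes called in the same direction numbered 13. Beside the Hoxa, Zscan4 and Y chromosome runs, the longest joined 22 genes of the Pcdhg cluster on chromosome 18, all higher by between 0.21 and 0.25 on the log2 scale. These transcripts share their 3' exons, so the run is in effect 1 signal, and without mutant replicate 1 the count called higher among protocadherins was 11. A run on chromosome 18 that fell joined Dsc2, Dsg2, B4galt6, Trappc8 and Rnf125 and so held 2 desmosomal cadherins; when 1 library was left out, Dsc2, Trappc8 and Rnf125 had an adjusted p of up to 0.076, 0.15 and 0.11, so the run rests on calls that were lost. On chromosome 11 a run of 6 that fell joined Eif4a1, Senp3, Tnfsf12, Tnfsf13, their readthrough transcript and Polr2a, with Senp3 at 266, 241 and 253 CPM in WT and 202, 198 and 191 CPM in mutant libraries (-0.36 ± 0.05). Its outer members Eif4a1 and Polr2a had an adjusted p of up to 0.097 and 0.061 when 1 library was left out. On chromosome 7 Nphs1 (nephrin) fell from 72.3 ± 5.24 to 43.6 ± 3.84 CPM beside Kirrel2 and Aplp1, though Nphs1 and Nphs1os share exonic sequence. A run of 6 genes on chromosome 10 had identical counts in every library and is therefore also 1 signal.

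Promoters of the genes with large falls were poorer in CpG. Over 300 bases the median number of CpG was 21 for the 10862 tested genes with a promoter in the table and 10.5 for the 140 that fell at least 2-fold, of which 47.1% had fewer than 10 CpG, against 17.3% of all. For the 34 that rose at least 2-fold the median was 16. For all genes that fell, and for all that rose, it was 21. These sets also differ in expression level, since large changes were found mainly among genes with few counts, and the part of that in the CpG numbers was not tested.

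The same contrast was available in mESCs with their own WT libraries, and the difference of the mutant effects (EpiLCs minus mESCs) was called for 1351 genes (9.73%), 650 positive (4.68%) and 701 negative (5.05%). The fall of naive genes differed between the states: the difference was called and negative for 20 of 31 members and positive for none. For Esrrb it was -1.98 ± 0.08 (SE; adjusted p = 3.16e-48), with mESC levels of 942 ± 43.98 CPM in WT and 926 ± 22.4 CPM in mutant cells. For 2-cell-like genes the difference was called and positive for 4 of 20, for Hox genes it was positive for 6 of 28, and for germline genes positive for 11 of 41 and negative for 2. A positive difference can mean a smaller fall in EpiLCs, as for Sohlh2, at -1.77 ± 0.09 in mESCs and -1.03 ± 0.09 in EpiLCs. The 2-cell-like genes Zscan4d and Zscan4b were also lower in mutant mESCs, at -2.64 ± 0.19 and -3.31 ± 0.39, with no difference called (adjusted p = 0.119 and 0.112). Ccdc126, Phlda2 and Hoxd13 rose or fell in both states, with no difference called (adjusted p = 0.766, 0.14 and 0.136). In contrast the rise of Cdkn1c was larger in EpiLCs by 2.63 ± 0.29 on the log2 scale (adjusted p = 8.9e-13), and in mESCs it stood at 1.97 ± 0.206 CPM in WT and 3.005 ± 0.384 CPM in mutant cells.

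**Figure D5:**
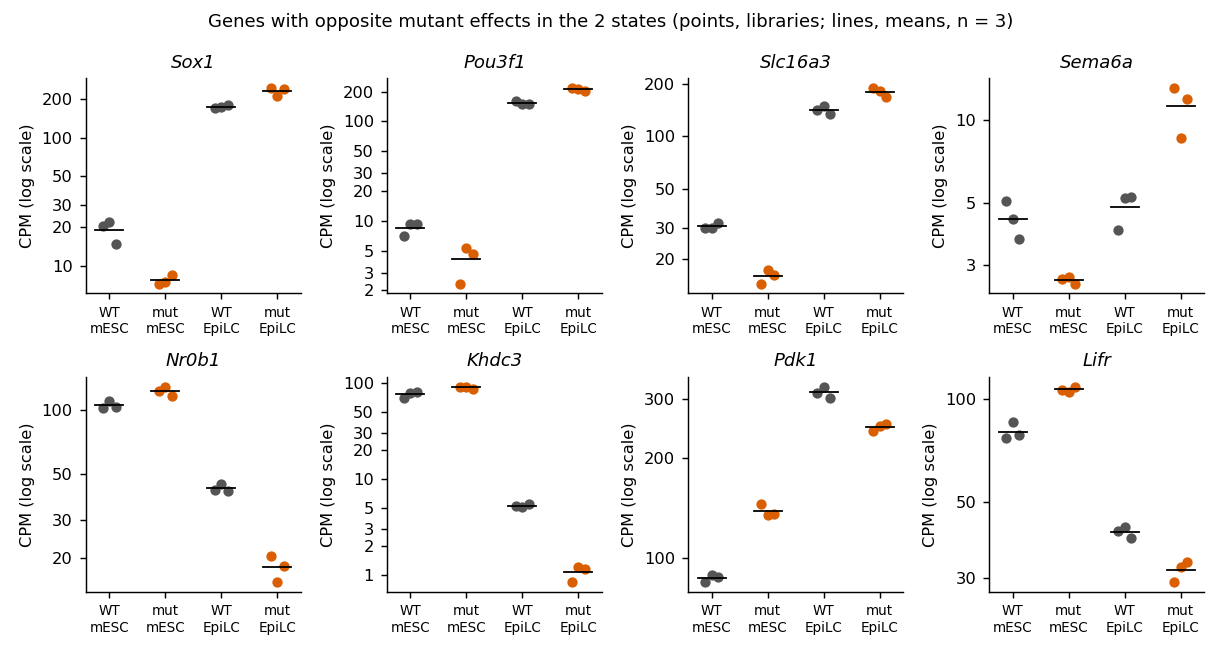
CPM (log scale) of 8 genes in the 3 libraries of each of the 4 groups (points; grey, WT; orange, mutant), with lines at the means. In the top row the mutant mESCs lie below and the mutant EpiLCs above their WT group, as for Sox1, at 7.697 ± 0.672 against 19.04 ± 3.78 CPM in mESCs and 230.5 ± 17.02 against 174 ± 4.09 CPM in EpiLCs. In the bottom row the order is the opposite.

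For 126 genes the mutant effect was called in both states with opposite signs and the difference was also called: 60 were higher in mutant EpiLCs and lower in mutant mESCs, and 66 the reverse. The neural and epiblast factors Sox1, Sox3 and Pou3f1 were among the former. In mESCs Pou3f1 stood at 7.09, 9.32 and 9.25 CPM with WT and 2.34, 5.31 and 4.68 CPM with mutant EPOP, against 162, 151 and 151 and 216, 212 and 205 CPM in EpiLCs. Lifr, Stat3 and the naive genes Nr0b1 and Khdc3 were among the latter. In mESCs Lifr stood at 76.9, 85.6 and 78.5 CPM with WT and 107, 105 and 109 CPM with mutant EPOP, so that it was higher in mutant mESCs and lower in mutant EpiLCs.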

How the data were processed

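Total RNA was sequenced from 12 libraries, in 4 groups of 3. The deposited counts are raw, whole numbers per gene. The submitters' processing notes name STAR 2.5.3a, featureCounts, FastQC 0.11.2, edgeR 3.18.1 and the build mm10, without their roles or the strand setting. Reads of overlapping and antisense genes therefore cannot be told apart. A normalised score per gene (CPM) that the authors deposited was not used for tests. The authors' deposited TPM served only to compare levels between genes. From the authors, deposited log2 changes with their p-values gave only an alternative count.

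Of 19656 rows, 26 that held dates in place of symbols (0.182% to 0.212% of counts) were left out. edgeR 4.0.16 (R 4.3.3) fitted raw counts of all 12 libraries with 4 group means, TMM scaling, its default filter and quasi-likelihood tests, with Benjamini-Hochberg adjustment over 13879 genes, called at adjusted p under 0.05. The fit was also run on counts simulated from its own means and dispersions. That run cannot show whether the real replicates are independent. Printed CPM use TMM-scaled library sizes. Positions are from a GRCm38 annotation (GENCODE M21), by symbol for 18587 genes, by synonym for 788, and not for 255.

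Named genes were Epop, the 12 largest rises and 12 largest falls (at least 2 CPM, groups apart), up to 4 called members of each list, members of runs, the 5 most abundant called genes each way and cell type markers; others are said to be chosen after their values were seen. The comparison, members and lists were chosen with earlier results of these data known. Alternatives were other scaling, DESeq2 1.42.0, 2 filters, a replicate block, a fit to 6 libraries and leaving out each library. Results for some genes that the rule gives are not reported here.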

Additional observations from a re-analysis of the deposited data

Results flagged for a closer look

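The mutant effect differed between EpiLCs and mESCs for 1351 genes at an adjusted p under 0.05 in edgeR's test of the difference itself. The following values are that difference in log2 (EpiLCs minus mESCs). They cover named genes that were among the 12 largest rises or falls, or whose effects were called with opposite signs in EpiLCs and mESCs. Other named genes with a called difference, such as Esrrb, are not listed here. The difference was positive, so that the effect was higher in EpiLCs, for Fgf8 at 3.09, Cdkn1c at 2.63, Sema6a at 1.95, Sox1 at 1.73, Pou3f1 at 1.49, Pim2 at 1.32, Slc16a3 at 1.27, Sox3 at 1.12, Zyx at 0.89 and Smo at 0.69. It was negative for the endoderm gene Gata6 at -3.29, for the naive genes Khdc3 at -2.55 and Nr0b1 at -1.45, and for the lysosomal gene Manba at -1.43. The LIF receptor gene Lifr, at -0.79, and Stat3, at -0.68, were negative too. It was also negative for Bmp4 at -1.82, Nrp2 at -1.36, Cdx1 at -1.13, Pdk1 at -1.01, the heat shock gene Hspb1 at -0.76, Mt2 at -0.57 and Jarid2 at -0.30. Bmp4, Cdx1, Fgf5 and Smo lost the call of the EpiLC effect when 1 library was left out. For Fgf5 the fitted difference of 5.23 gives no size, since its count was 0 in all 3 mutant mESC libraries and its level was 0.222, 0.194 and 0.385 CPM in WT mESCs; no bound is given because both mESC groups were near 0.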

How the results depend on the processing

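The 2198 calls (974 higher, 1224 lower) became 2189 with relative log expression scaling, 1853 with DESeq2, 2076 with no filter, 2222 with a filter of 2 CPM in 3 libraries, 2253 in a fit to the 6 EpiLC libraries and 2417 in the authors' deposited table. Requiring at least 2-fold left 247, 45 higher and 202 lower. Leaving out each library gave 1665 to 1988 calls (690 to 856 higher, 963 to 1132 lower) and kept 71.3% to 80.4% of the 2198. With a replicate block there were 2249 calls (1011 higher, 1238 lower) and 1417 differences between states; deviations of libraries with WT and mutant genotype correlated at -0.033 to 0.027 whatever their numbers, so the numbers do not pair them. The 1351 differences became 1335, 1163, 1295 and 1338 with the other scaling, DESeq2, no filter and the stricter filter, and 1133 to 1341 when a library was left out. The median of imprinted genes changed sign, from -0.15 to 0.02, with no filter, which adds members with few counts. Of 254 called named genes 184 kept their call in every setting and 0 reversed. Eomes, not called, became called without mutant replicate 3 (adjusted p = 0.038). Under 3 CPM, depth limits which differences could be called.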
